A study of Homo sapiens with 6 samples.

Results

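The genes described here encode the machinery that removes cytoplasmic and nuclear mRNA: deadenylases, decapping factors, exonucleases, the RNA exosome and the factors of nonsense-mediated decay (NMD). They were chosen by symbol, as 45 genes of the 56305 in the count tables, and fall into 5 groups: 10 subunits of CCR4-NOT, 6 other deadenylases and BTG/TOB adaptors, 10 decapping factors and 5′-3′ exonucleases, 12 exosome subunits and nucleases, and 7 NMD factors. RNA-seq was performed on MOLM13, an acute myeloid leukemia cell line with FLT3-ITD and the t(9;11)(p22;q23) translocation, after 24 h in DMSO (3 libraries) or in 1 μM of ZW27941 (3 libraries). ZW27941 is a degrader that brings METTL3, the catalytic subunit of the m6A writer, to the VHL ubiquitin ligase. A single cell line, dose and time were sampled, and the labels do not say whether the 3 libraries of a group came from separate cultures, so the p-values measure the spread between these libraries only, which may be technical.

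Most mRNAs are destroyed in a fixed order. Deadenylases shorten the poly(A) tail, after which the cap is removed and XRN1 digests the body from the 5′ end, or the exosome digests it from the 3′ end. m6A feeds into these steps through reader proteins, of which YTHDF2 binds the scaffold of CCR4-NOT, and NMD sends transcripts with premature stop codons to the same enzymes through the helicase UPF1.

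The libraries held 143454176 to 153825333 counts on genes in DMSO and 143621822 to 178744976 on ZW27941, and replicates varied with a common biological coefficient of variation of 3.11%. All 9 myeloid markers examined were expressed, at 47.7 to 1196 CPM (counts scaled by library total and TMM factor). Among 12 markers of other lineages HBB and HBA1 were at 0, and apart from PECAM1, which myeloid cells also express, none exceeded 7.75 CPM. Without PECAM1 the other-lineage markers summed to 8.88 to 9.83 CPM in DMSO and 8.90 to 9.13 CPM on ZW27941, while PECAM1 was at 254 to 264 and 323 to 332 CPM. The summed level of the myeloid markers was 2761 to 2816 CPM in DMSO and 3024 to 3099 CPM on ZW27941, and the part of these markers in the results was not tested. The METTL3 transcript was at 120 to 122 CPM in DMSO and 119 to 128 CPM on ZW27941, which does not check the labels because the degrader acts on the protein. ZW27941 replicate 3 stood apart, with 5.25% of its tallied reads aligned to several places against 3.63% to 4.07% in the other libraries, so results are also given without it where they change.

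Together the decay genes took 0.397% to 0.407% of the counts on genes in each library. Every one had at least 1898 counts in every library, and all 45 passed the expression filter and were tested. Of the 45, 7 were higher on ZW27941 (CNOT8, DCP1B, EXOSC3, EXOSC4, DIS3L, UPF3A and UPF3B) and 9 were lower (CNOT3, PAN2, BTG3, DDX6, PATL1, XRN2, EXOSC1, EXOSC5 and SMG5), by the quasi-likelihood test of edgeR, with a threshold of 0.05 on the p-value after Benjamini-Hochberg adjustment across 20399 genes. The changes were small: EXOSC3 rose by 17.6%, the largest change in percent, and EXOSC5 fell by 15.9%, the largest on the log2 scale. In bulk RNA, fewer cells of a type and less RNA per cell cannot be told apart.

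The 16 genes past the threshold made up 35.6% of the decay genes, near the 30.1% of all genes tested. Among all genes 16.3% were higher and 13.8% were lower. Among the 8454 genes within the decay genes' range of mean log2 CPM, from 3.80 to 8.53, the share was 45.9%. The share of the decay genes thus lay between these background shares. By complex the share was 20% in CCR4-NOT, 33.3% among the other deadenylases and adaptors and 40% in decapping. It was 41.7% in the exosome and 42.9% among the NMD factors, so each complex was below 45.9%. The median log2 fold change of the 45 decay genes was −0.018, against −0.0019 for all genes. Their median absolute log2 fold change was 0.068, against 0.072 for genes in the same range.

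With a change of over 0.25 on the log2 scale required in addition, 0 of the 45 genes passed by the quasi-likelihood test, as did 0 at an unadjusted p under 0.05, and 1 passed by DESeq2. Among all genes tested 9.1% passed, and among the 8454 genes within the decay genes' range of mean log2 CPM 4.03% passed. The gene that DESeq2 added was EXOSC5, whose log2 fold change of −0.2499 in edgeR fell just short of the limit. The 3 ZW27941 libraries lay wholly on one side of the 3 DMSO libraries for 22 of the 45 genes, 9 above and 13 below, against 41.6% of all genes tested. For the 29 genes not past the threshold the log2 fold changes ran from −0.089 to 0.073, and their 95% intervals reached no further than −0.17 (CNOT4) and 0.14 (TOB1).

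**Figure D1:**
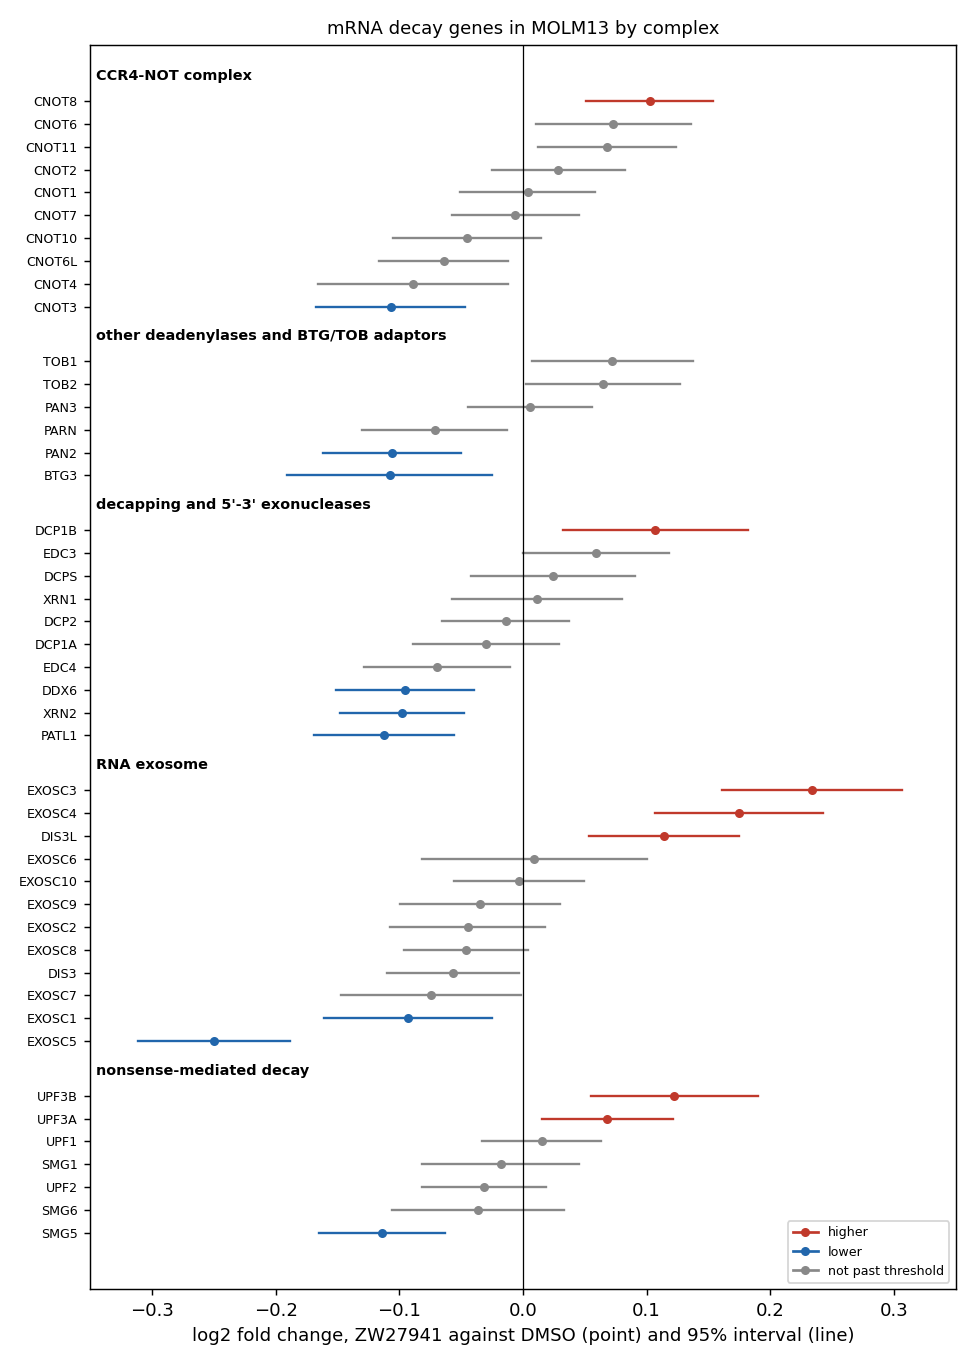
Log2 fold change of each of the 45 decay genes, ZW27941 against DMSO (horizontal axis; point, estimate; line, 95% interval), arranged by complex. The genes past the threshold lie within 0.25 of 0, with EXOSC3 and EXOSC5 farthest out, and higher and lower genes occur in the same complex.

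CCR4-NOT is the main cytoplasmic deadenylase. Of its 10 subunits, 1 was higher, 1 was lower and 8 did not pass the test, and the median log2 fold change was −0.0012. CNOT8, which carries one of the deadenylase active sites, was at 122, 123 and 127 CPM in the DMSO libraries and at 133, 133 and 134 CPM on ZW27941. All ZW27941 libraries were above all DMSO libraries, and the log2 fold change was 0.10 (standard error, SE, 0.025; adjusted p = 0.0030). CNOT3, a subunit of the NOT module that docks adaptors, was at 70.5, 71.3 and 67.9 CPM in DMSO and 66.8, 65.2 and 62.7 CPM on ZW27941. Its groups did not overlap either, and the log2 fold change was −0.11 (SE 0.029, adjusted p = 0.0071). CNOT1, the scaffold on which the complex is built and to which YTHDF2 binds, averaged 369 ± 6.43 (SD, n = 3) CPM in DMSO and 370 ± 11.6 CPM on ZW27941. Its 95% interval ran from −0.051 to 0.059 on the log2 scale, so a change of the size seen for CNOT8 or CNOT3 lay outside it.

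The nuclease subunits of CCR4-NOT come in paralog pairs that take the same place in the complex. Per kilobase of exon, CNOT7 made up 29.8% ± 0.67 (SD, n = 3) of its pair with CNOT8 in DMSO and 28.3% ± 0.12 on ZW27941. That order rests on the exon lengths used, 10943 bases for CNOT7 and 3930 for CNOT8. In CPM CNOT7 was the higher, at a mean of 147 against 124 in DMSO. CNOT6L was the more abundant of the other pair, and the share of CNOT6 went from 33.1% ± 1.37 to 35.3% ± 0.39. In both pairs the groups did not overlap, and an exact two-sided permutation test gave p = 0.1, the smallest that 3 against 3 libraries can give (0.14 after Benjamini-Hochberg adjustment over 7 pairs). Of these 4 nucleases only CNOT8 passed the gene-wise test, while CNOT6 had a log2 fold change of 0.073 (adjusted p = 0.074) and CNOT6L of −0.064 (adjusted p = 0.058). Without ZW27941 replicate 3, CNOT6 passed as well, at 0.082 (adjusted p = 0.043).

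Among the other deadenylases and the BTG/TOB adaptors, which tether CNOT7 and CNOT8 to their substrates, 0 of 6 were higher and 2 were lower by the quasi-likelihood test (without adjustment 2 had a higher and 3 a lower mean with p under 0.05, and DESeq2 called 0 higher). PAN2, the nuclease that trims long tails first, was at 133, 141 and 138 CPM in DMSO and 127, 131 and 126 CPM on ZW27941. The lowest DMSO library lay just above the highest ZW27941 library, and the log2 fold change was −0.11 (SE 0.027, adjusted p = 0.0045). PAN3, the partner that recruits PAN2 to poly(A)-binding protein, was at 243 ± 2.29 CPM in DMSO and 244 ± 4.43 CPM on ZW27941, with a 95% interval of −0.044 to 0.056.

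BTG3, an adaptor with few counts, was at 15.002, 14.3 and 14.1 CPM in DMSO and 13.5, 13.2 and 13.6 CPM on ZW27941, a log2 fold change of −0.11 (adjusted p = 0.045). This call was the most easily lost with UPF3A's, in 8 of 14 alternatives each, and 12.1% of BTG3's exon length overlaps the antisense gene BTG3-AS1, whose reads cannot be told apart where counting ignores strand. TOB1 and TOB2, the remaining adaptors, had log2 fold changes of 0.072 (adjusted p = 0.088) and 0.065 (adjusted p = 0.11). Their shares of the pair did not separate, TOB1 making up 52.5% ± 1.22 (SD, n = 3) in DMSO and 52.6% ± 0.60 on ZW27941 (exact permutation p = 0.8).

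Decapping needs the hydrolase DCP2, its activator DCP1 (DCP1A or DCP1B), the scaffolds EDC3 and EDC4, the helicase DDX6 and PATL1, which connects the deadenylated end to the decapping complex. Of these 7 genes, the scavenger DCPS and the exonucleases XRN1 and XRN2, 1 was higher and 3 were lower, and the median of the 10 log2 fold changes was −0.022. PATL1 was at 71.5, 72.8 and 72.7 CPM in DMSO and 66.7, 69.0 and 65.1 CPM on ZW27941, lower in each ZW27941 library than in any DMSO library (log2 fold change −0.11, SE 0.027, adjusted p = 0.0032). DDX6 was at 142, 137 and 144 CPM in DMSO and 136, 130 and 129 CPM on ZW27941. The highest ZW27941 library of DDX6 was close to the lowest DMSO library, and the log2 fold change was −0.095 (SE 0.027, adjusted p = 0.0095).

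XRN2, the nuclear 5′-3′ exonuclease, was at 127, 126 and 128 CPM in DMSO and 120, 119 and 117 CPM on ZW27941, with little spread in either group. Its log2 fold change was −0.098 (SE 0.024, adjusted p = 0.0037). XRN1, the cytoplasmic enzyme, averaged 71.1 ± 1.98 (SD, n = 3) CPM in DMSO and 71.6 ± 3.92 CPM on ZW27941 and did not pass the test, with a 95% interval of −0.058 to 0.080. Per kilobase of exon XRN1 made up 13.8% ± 0.22 of the pair in DMSO and 14.8% ± 0.55 on ZW27941 (exact permutation p = 0.1). XRN2 was therefore the dominant transcript of the pair in both groups, and the shares did not overlap between groups.

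DCP1B was at 17.5, 18.8 and 18.4 CPM in DMSO and 19.2, 19.9 and 19.9 CPM on ZW27941. The groups did not overlap, and the log2 fold change was 0.11 (SE 0.036, adjusted p = 0.027), which fell short of the threshold without ZW27941 replicate 3 (0.095, adjusted p = 0.072). Its paralog DCP1A, with a mean of 54.0 ± 1.56 (SD, n = 3) CPM in DMSO and 52.9 ± 0.84 CPM on ZW27941, made up 69.0% ± 1.16 of the pair per kilobase in DMSO and 66.9% ± 0.44 on ZW27941 (exact permutation p = 0.1). DCP2 itself had a log2 fold change of −0.014, with a 95% interval of −0.066 to 0.038.

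**Figure D2:**
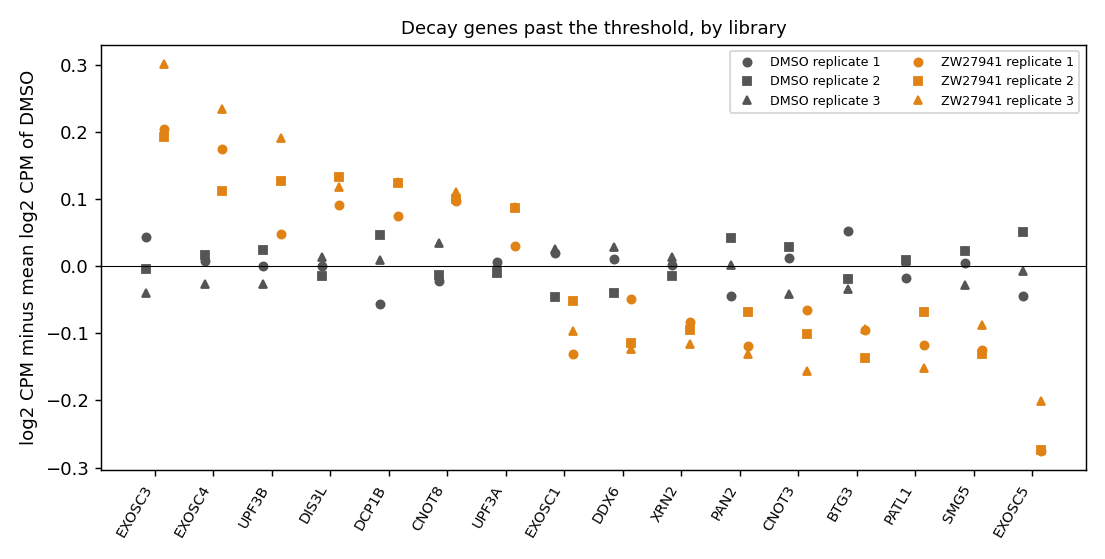
The 16 decay genes past the threshold in each of the 6 libraries, as log2 CPM minus the gene's mean log2 CPM in DMSO (vertical axis); gray symbols are DMSO, orange symbols ZW27941, and symbol shapes are replicate numbers. For every gene the 3 ZW27941 libraries lie on one side of the 3 DMSO libraries. ZW27941 replicate 3 is the highest of all for every higher gene but DIS3L, by little for DCP1B and UPF3A. It is the lowest of all for CNOT3, PAN2, DDX6, PATL1 and XRN2.

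The RNA exosome held the largest changes in both directions. It consists of a barrel of inert subunits, built from the pairs EXOSC4 with EXOSC9, EXOSC5 with EXOSC8 and EXOSC6 with EXOSC7, a cap of EXOSC1, EXOSC2 and EXOSC3 that lets RNA in, and the nucleases DIS3, DIS3L and EXOSC10. Of the 12 genes, 3 were higher, 2 were lower and 7 did not pass. The share past the threshold was 41.7%, against 45.9% of genes within the decay genes' expression range. The median log2 fold change of the 12 was −0.040. Without ZW27941 replicate 3, 3 were higher and 4 were lower, with EXOSC2 (−0.077, adjusted p = 0.042) and EXOSC7 (−0.12, adjusted p = 0.0085) added.

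EXOSC3, a cap subunit (GRCh38, chr9:37766978-37801437, minus strand), was at 24.9, 24.1 and 23.5 CPM in DMSO and 27.8, 27.6 and 29.7 CPM on ZW27941. Each ZW27941 library was well above the highest DMSO library, and the log2 fold change was 0.23 (SE 0.035, 95% interval 0.16 to 0.31, adjusted p = 2.56e-05). Without ZW27941 replicate 3 the log2 fold change was 0.20 (adjusted p = 6.15e-05). EXOSC1, which sits beside EXOSC3 in the cap, was at 27.7, 26.5 and 27.8 CPM in DMSO and 25.0, 26.4 and 25.6 CPM on ZW27941, a log2 fold change of −0.093 (adjusted p = 0.035). The groups of EXOSC1 were close to touching, and its call was lost in 6 of 14 alternatives. EXOSC2, the remaining cap subunit, averaged 64.3 ± 1.54 (SD, n = 3) CPM in DMSO and 62.3 ± 2.42 CPM on ZW27941.

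EXOSC5 (GRCh38, chr19:41386374-41397479, minus strand), a barrel subunit, was at 69.3, 74.0 and 71.1 CPM in DMSO and 59.1, 59.1 and 62.2 CPM on ZW27941. It fell by 15.9%, with a log2 fold change of −0.25 (SE 0.030, 95% interval −0.31 to −0.19, adjusted p = 1.61e-06) that was larger in size, −0.28, without ZW27941 replicate 3. Its barrel partner EXOSC8 averaged 106 ± 0.38 (SD, n = 3) CPM in DMSO and 103 ± 1.25 CPM on ZW27941 and did not pass (log2 fold change −0.046, adjusted p = 0.17). EXOSC7, of another barrel pair, was at 31.8, 31.9 and 30.3 CPM in DMSO and 29.01, 28.8 and 31.4 CPM on ZW27941, so that replicate 3 alone overlapped DMSO (log2 fold change −0.074, adjusted p = 0.12).

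EXOSC4, another barrel subunit, was at 30.2, 30.4 and 29.5 CPM in DMSO and 33.9, 32.5 and 35.4 CPM on ZW27941. Its log2 fold change was 0.175 (SE 0.033, 95% interval 0.11 to 0.24, adjusted p = 3.08e-04), and 0.14 (adjusted p = 0.0013) without ZW27941 replicate 3. An antisense gene, AC109322.1, overlaps 19.5% of EXOSC4's exon length, and the sources used here do not give the strand setting of the counting. The barrel partner of EXOSC4, EXOSC9, did not pass, with a mean of 41.8 ± 0.94 (SD, n = 3) CPM in DMSO and 40.8 ± 1.49 CPM on ZW27941.

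Transcripts of barrel subunits thus moved in opposite directions, EXOSC4 up and EXOSC5 down. Ratios of raw counts within a library describe this without any scaling. The ratios, some of them with cap subunits, were chosen after the values had been seen, so they carry no test and add no support. EXOSC4 had 0.411 to 0.436 counts per count of EXOSC5 in the DMSO libraries and 0.550 to 0.574 on ZW27941, a ratio 1.34-fold higher. EXOSC3 per EXOSC5 was 1.40-fold higher and EXOSC3 per EXOSC1 was 1.25-fold higher on ZW27941. Within the barrel pairs EXOSC4 per EXOSC9 was 1.16-fold higher and EXOSC8 per EXOSC5 was 1.15-fold higher, both without overlap, whereas EXOSC6 per EXOSC7 was 1.06-fold higher with overlapping groups, at 0.963 to 1.11 in DMSO and 1.03 to 1.12 on ZW27941.

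Per kilobase of exon, a level that depends on the exon lengths used, EXOSC5 was the highest of the exosome and of all 45 decay genes. It was at 48.0 ± 1.60 (SD, n = 3) CPM per kilobase in DMSO and 40.4 on ZW27941. EXOSC8 followed at 29.2 and 28.2, and EXOSC4 at 21.4 and 24.1. The lowest were DIS3L at 5.62 and 6.08 and EXOSC6 at 6.20 and 6.24. The order of the first 3 was therefore the same in both groups, with the gap between EXOSC5 and the others smaller on ZW27941.

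**Figure D3:**
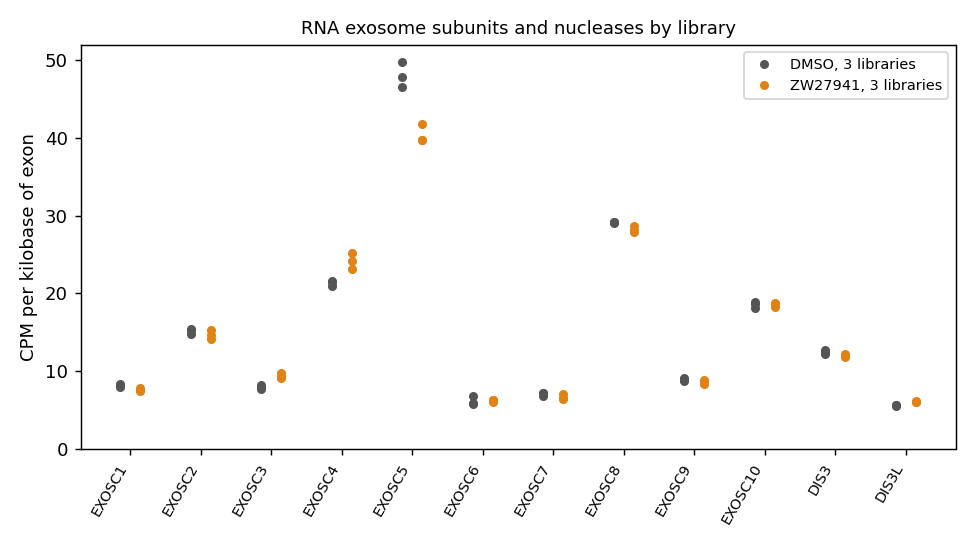
Level of the 12 exosome genes in each library, as CPM per kilobase of exon (vertical axis, from 0); gray points are the 3 DMSO libraries and orange points the 3 ZW27941 libraries. EXOSC5 is the most abundant and falls from 48.0 to 40.4 on average, while EXOSC4 rises from 21.4 to 24.1 and EXOSC3 from 7.98 to 9.39.

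Of the nucleases of the exosome, DIS3L passed the test, and DIS3 and EXOSC10 did not. DIS3L, the cytoplasmic nuclease, was at 30.5, 30.2 and 30.8 CPM in DMSO and 32.6, 33.5 and 33.2 CPM on ZW27941. Its groups were far apart for their spread, and the log2 fold change was 0.11 (SE 0.029, adjusted p = 0.0047). DIS3, its mainly nuclear paralog, averaged 136 ± 3.33 (SD, n = 3) CPM in DMSO and 130 ± 2.22 CPM on ZW27941 (log2 fold change −0.056, adjusted p = 0.11). DIS3 made up 69.0% ± 0.33 of the pair per kilobase in DMSO and 66.4% ± 0.66 on ZW27941, without overlap (exact permutation p = 0.1). EXOSC10, the nuclear nuclease, had a log2 fold change of −0.0029 with a 95% interval of −0.055 to 0.050, and an antisense gene covers 36.6% of its exon length.

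Of the 7 NMD factors, 2 were higher, 1 was lower and 4 did not pass, and the median log2 fold change was −0.018. UPF3B, which links UPF2 to exon junction complexes downstream of a stop codon, was at 47.7, 48.6 and 46.9 CPM in DMSO and 49.3, 52.1 and 54.5 CPM on ZW27941. All ZW27941 libraries were above DMSO but were spread widely, and the log2 fold change was 0.12 (SE 0.032, adjusted p = 0.0060). Without ZW27941 replicate 3 it was 0.084 (adjusted p = 0.037). UPF3A, its paralog, was at 96.9, 95.8 and 96.7 CPM in DMSO and 98.5, 102 and 103 CPM on ZW27941 (log2 fold change 0.068, SE 0.025, adjusted p = 0.046), and did not pass without ZW27941 replicate 3 (0.056, adjusted p = 0.11). Reads of UPF3A can be shared with its pseudogenes, and of the 3 tested UPF3AP2, at under 1 CPM in every library, was also higher (adjusted p = 0.045). Within the pair UPF3A made up 51.9% ± 0.56 (SD, n = 3) per kilobase in DMSO and 51.0% ± 0.77 on ZW27941, with overlap between groups (exact permutation p = 0.2).

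SMG5, an adaptor that binds phosphorylated UPF1 and calls in decay enzymes, was at 177, 179 and 173 CPM in DMSO and 162, 161 and 166 CPM on ZW27941. The gap between the groups exceeded the spread within either, and the log2 fold change was −0.11 (SE 0.025, adjusted p = 0.0012). SMG6, the endonuclease of the pathway, averaged 32.4 ± 0.86 (SD, n = 3) CPM in DMSO and 31.6 ± 1.32 CPM on ZW27941 and did not pass (log2 fold change −0.036, adjusted p = 0.46). UPF1, the helicase at the center of NMD, was at 186 ± 1.82 CPM in DMSO and 188 ± 1.33 CPM on ZW27941, with a 95% interval of −0.033 to 0.064. SMG1, the kinase that phosphorylates UPF1, had a log2 fold change of −0.018 that changed sign to 0.024 without ZW27941 replicate 3. Its value is uncertain because of 7 near-identical pseudogene copies among the genes tested, of which SMG1P1 (−0.24, adjusted p = 0.019) and SMG1P3 (−0.25, adjusted p = 0.031) were lower.

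Per kilobase of exon the decay genes outside the exosome ranged in DMSO from 3.07 for SMG6 to 38.3 for PAN3. CNOT4 (3.35) and DCP1B (3.96) were near the lower end, and XRN2 (36.9), CNOT1 (34.0) and SMG5 (33.3) near the upper end. Genes past the threshold therefore included low transcripts such as DCP1B as well as high ones such as XRN2.

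The 250 bases upstream of the RefSeq start (GRCh38.p14) were searched on both strands for 5 motifs in the 41 decay genes with an entry. The CCAAT box (CCAAT) was found in 16 of them, 39.0%, against 33.0% of 27305 promoters, and the ETS motif (CCGGAAG) in 5, 12.2% against 8.82%. The E-box (CACGTG) was found in 4, 9.76% against 6.49%, and the CRE (TGACGTCA) and NRF1 (GCGCATGC) motifs in 1 each, 2.44% against 1.77% and 2.81%. None of the motifs contains another, and a match is a description of the sequence, not of a bound site. Of the 16 genes with a CCAAT box, 1 was higher (UPF3B) and 4 were lower (CNOT3, PAN2, EXOSC5 and SMG5). Among all 45 decay genes 35.6% passed the threshold. With the ETS motif 2 were higher (DCP1B and UPF3A) and 1 was lower (BTG3). With the E-box 0 were higher and 2 were lower (XRN2 and EXOSC5), with the CRE 1 was lower (XRN2), and with NRF1 none passed. A link between motif and direction was not tested.

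Genes that work with the machinery were examined as 7 further lists, 110 genes of which 109 were tested. Of these, 14 were higher and 35 lower, together 44.95%, against 30.1% of all genes tested and 45.9% of genes within the decay genes' expression range. Among 14 further deadenylation genes 3 were higher and 4 were lower, together 50%. ANGEL2, of the same nuclease family as CNOT6, had a log2 fold change of 0.23 (adjusted p = 1.37e-06), and PAIP1, a partner of poly(A)-binding protein, of −0.18 (adjusted p = 2.17e-05). Among the 15 genes of the LSM ring, which holds PATL1 on the deadenylated tail, and further decapping genes, 4 were higher and 3 were lower. Together these made up 46.7%, near the share in the same expression range. NUDT3 (0.25, adjusted p = 1.65e-07) and NUDT16 (0.41, adjusted p = 1.05e-04), both hydrolases that can remove caps, were the members with the lowest p.

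Of 15 exosome cofactors, 1 was higher and 6 were lower, with a median log2 fold change of −0.059. The share past the threshold was 46.7%, near the 45.9% of genes within the decay genes' range. HBS1L, which bridges stalled ribosomes and the exosome, had a log2 fold change of −0.14 (adjusted p = 1.86e-04) and the nuclear exosome helicase SKIV2L2 of −0.11 (adjusted p = 8.46e-04). Among 16 further NMD and exon junction complex genes 1 was higher and 3 were lower, together 25%. This share was below the 30.1% of all genes tested and the 45.9% of genes within the decay genes' range. The genes of this list past the threshold were led by the ATPase RUVBL2 at −0.12 (adjusted p = 0.0010) and the junction protein PNN at 0.12 (adjusted p = 0.0018).

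Of 22 sequence-specific decay adaptors 3 were higher and 7 were lower, together 45.5%, near the 45.9% of genes within the decay genes' range. ZFP36, which binds AU-rich elements and recruits CCR4-NOT, had a log2 fold change of −0.21 (adjusted p = 2.98e-06), and ELAVL1, which binds the same elements and stabilizes mRNA, of 0.15 (adjusted p = 1.54e-04). Another list held 5 genes that link m6A to decay, namely the readers YTHDF1, YTHDF2, YTHDF3 and YTHDC2, and RIDA. Of these 5, 2 were higher and 0 were lower, also 0 lower at an unadjusted p under 0.05. The share past the threshold was 40%, against 45.9% of genes within the decay genes' range. YTHDF2 rose from 86.1, 83.5 and 83.9 CPM in DMSO to 94.5, 94.4 and 94.3 CPM on ZW27941, a log2 fold change of 0.16 (adjusted p = 4.26e-05), and YTHDF1 had a log2 fold change of 0.11 (adjusted p = 0.0089). The reader that binds CCR4-NOT thus rose, whereas CNOT1, the subunit it binds, did not pass the test.

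Of 22 transcripts known as NMD substrates, 12 were lower and 0 were higher by the quasi-likelihood test (without adjustment, 13 lower and 2 higher with p under 0.05), and the median log2 fold change was −0.14. The share past the threshold was 54.5%, against 45.9% of genes within the decay genes' range, and 13.8% of all genes tested were lower. Neither background matches the list, which also holds genes outside that range, such as RPL3 (mean 4053 CPM in DMSO) and ARC (0.074 CPM). DDIT3 fell from 27.9, 32.0 and 32.0 CPM to 17.4, 18.7 and 18.8 CPM (log2 fold change −0.74, adjusted p = 6.03e-11) and CDKN1A from 316, 333 and 330 CPM to 278, 268 and 275 CPM (−0.25, adjusted p = 2.26e-07). The splicing factor genes SRSF2, SRSF3, SRSF6, TRA2B and HNRNPL did not pass, with log2 fold changes from 0.0030 (SRSF2) to 0.057 (SRSF3). Counts per gene do not separate their isoforms. Several members, such as DDIT3, ATF4 and ATF3, also belong to the integrated stress response, and others are snoRNA hosts or encode ribosomal proteins, so the list does not measure NMD alone. The 12 lower transcripts stand beside NMD factors of which UPF3A and UPF3B were higher, SMG5 was lower and UPF1, UPF2, SMG1 and SMG6 did not pass.

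**Figure D4:**
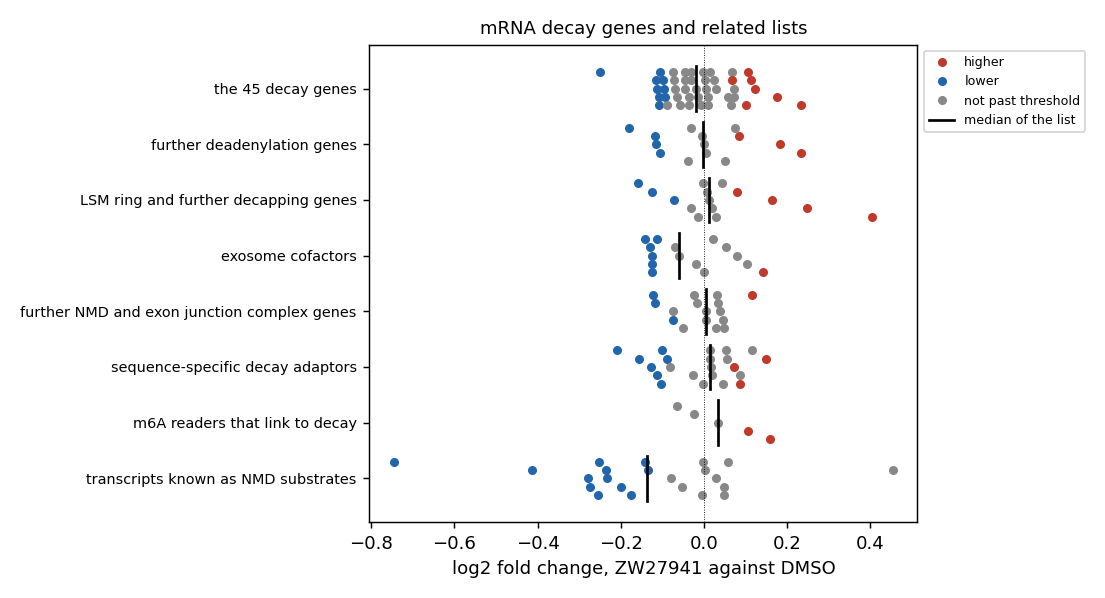
Log2 fold change on ZW27941 against DMSO (horizontal axis) of the 45 decay genes and of 7 related lists, 1 point per gene; vertical positions within a list are only for spacing, and black bars are medians. The medians lie between −0.059 and 0.034 except that of the NMD substrates, at −0.14.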

How the data were processed

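The authors deposited raw counts of reads per gene symbol, 1 table per library, made with HTSeq 2.0.3 after HISAT2 and SAMtools 1.19.2 on hg38, per the submitters' processing notes. The annotation and the strand setting are not given in the sources used here. HTSeq's tallies of reads without a gene, 37.4% to 39.8% of those tallied, were left out. The deposited counts were tested in R 4.3.3 with edgeR 4.0.16 (TMM, filterByExpr, quasi-likelihood test, Benjamini-Hochberg adjustment over 20399 genes, threshold 0.05). Intervals are 95% intervals from the same fit. Levels per kilobase used the merged length of all annotated exons of a gene in GENCODE v29, with positions on GRCh38. This length can exceed that of the mRNA expressed. Paralog shares were compared with an exact two-sided permutation test. Steps were tested on simulated data. The alternatives were 3 normalizations, DESeq2 1.42.0, edgeR's likelihood ratio test, 2 filters, the replicate number as a block and each library left out. Genes named are all decay genes past the threshold, the highest and lowest of each complex, paralog pairs and the 2 with the lowest p in each further list; others were chosen after their values were seen. The members and lists were chosen with earlier results of these data known.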

Additional observations from a re-analysis of the deposited data

How the results depend on the processing

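Over 14 alternatives, 11 of the 16 calls held in every one (CNOT3, CNOT8, PAN2, PATL1, XRN2, EXOSC3, EXOSC4, EXOSC5, DIS3L, UPF3B and SMG5). BTG3 and UPF3A were lost in 8 each, EXOSC1 in 6, DCP1B in 5 and DDX6 in 1, and no called gene changed sign. The cause was not tested. With upper quartile normalization 5 decay genes were higher and 16 lower, and over all genes 57.9% of the calls were lower, against 45.8% with TMM. The normalizations moved the median of all genes to between −0.025 and 0.0082.

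By complex, upper quartile normalization gave 3 lower CCR4-NOT genes, 3 lower deadenylases or adaptors, and 0 higher and 4 lower decapping genes. It also gave 5 lower exosome genes, 1 higher NMD gene and 1 gene past 0.25, with a median of −0.041 over the decay genes. RLE gave 2 lower CCR4-NOT genes, 1 higher NMD gene and 1 gene past 0.25. Library size alone gave 2 higher CCR4-NOT genes, 1 lower deadenylase or adaptor, 1 lower exosome gene and a median of −0.0076. DESeq2 gave 2 lower CCR4-NOT genes, 3 lower deadenylases or adaptors, 4 lower decapping genes and 1 gene past 0.25. In all, DESeq2 called 7 decay genes higher and 12 lower. The likelihood ratio test gave 1 lower deadenylase or adaptor. No filter gave 2 higher CCR4-NOT genes, 1 lower deadenylase or adaptor and 1 lower exosome gene, and a minimum of 10 counts gave 2 lower CCR4-NOT genes and 1 gene past 0.25.

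With libraries left out in turn, 5 to 7 decay genes were higher and 6 to 11 lower, with a median of −0.031 to −0.013 and 0 to 2 past 0.25. Higher and lower genes numbered 1 to 2 and 1 to 2 in CCR4-NOT, 0 to 1 and 1 to 2 among the other deadenylases, 0 to 2 and 2 to 4 in decapping, 3 to 3 and 1 to 4 in the exosome, and 1 to 2 and 1 to 1 in NMD. The further lists kept 41 to 49 calls. Without DMSO replicate 3, 5 were higher and 6 lower.

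Uncalled genes near 0 changed sign. Under upper quartile normalization CNOT1 was at −0.020, PAN3 at −0.018, XRN1 at −0.012, EXOSC6 at −0.014 and UPF1 at −0.0084. With library size alone CNOT7 was at 0.0038 and EXOSC10 at 0.0070, and with no filter EXOSC10 at 0.0026. Leaving out libraries gave −0.012 to 0.027 for CNOT1, −0.019 to 0.0094 for CNOT7, −0.018 to 0.011 for EXOSC10, −0.0084 to 0.019 for PAN3, −0.018 to 0.053 for XRN1, −0.038 to 0.088 for EXOSC6, −0.0021 to 0.042 for DCPS and −0.051 to 0.024 for SMG1.

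Same-numbered deviations correlated at 0.079, −0.14 and −0.13, so no pairing by replicate number was seen. With 3 libraries per group these correlations cannot exclude a pairing. With the replicate number as a block, 6 decay genes were higher and 8 lower, with 1 lower exosome gene and 1 higher NMD gene, and 6010 genes were called in all against 6149.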
